A study of Mus musculus with 629 samples.

Results

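Immediate early genes are described here in single brain macrophages and microglia of mice of 3 Notch3 genotypes. The 10 genes, Fos, Fosb, Jun, Junb, Jund, Egr1, Ier2, Zfp36, Btg2 and Atf3, were taken by symbol from the 53546 genes of the count table, and all 10 had a row. The cells came from the brains of adult C57BL/6 mice that all carried the same reporter, SM22-Cre with Rosa26-stop-tdTomato, in which the promoter of the smooth muscle gene SM22 drives Cre. The mice were wild-type (WT), heterozygous (Het) or knockout (KO) for Notch3, a receptor of the Notch family. Cells were sorted by fluorescence into wells of 384-well plates and each was sequenced with SMART-seq2, which reads full-length cDNA. The labels placed 400 cells among macrophages (211 WT, 70 Het and 119 KO) and 215 among microglia (79 WT, 58 Het and 78 KO), and 14 cells in a type named only 7. Which fluorescence gate was used is not stated in the labels.

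Immediate early genes are switched on within minutes of a stimulus, without new protein synthesis, and their transcripts are short-lived. Fos, Fosb, Jun, Junb and Jund encode subunits of the transcription factor AP-1, in which a Jun protein pairs with a Fos or another Jun protein. Egr1 is a zinc finger transcription factor, Atf3 a stress-induced factor of the ATF family, and Ier2 a small nuclear protein. Zfp36 encodes tristetraprolin, which binds AU-rich elements and speeds the decay of cytokine transcripts. Btg2 is an antiproliferative protein that recruits the deadenylation machinery. In brain macrophages and microglia these genes are known to respond to signals in the tissue and also to the dissociation of the tissue into single cells.

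The control regions of these genes carry short elements through which signals act. The 250 bases before the RefSeq start (GRCm38.p6) were looked up for the members, and 8 of 10 had an entry; Egr1 and Ier2 had none. The 4 sequences below belong to members that were high together in 1 group of cells described further on, and each holds at least 1 of the motifs searched. Capitals mark matches, on either strand, to any of the motifs searched. TGACGTCA is the full cAMP response element. Its half-site is TGACG, which the full element contains. The TATA box was searched as TATAAA. The CArG box is the element bound by serum response factor. They lie at chr12:85473640-85473889 (Fos, forward strand), chr8:84978749-84978998 (Junb, reverse), chr7:28379229-28379478 (Zfp36, reverse) and chr1:134079156-134079405 (Btg2, reverse), all upstream of the gene.
Fos: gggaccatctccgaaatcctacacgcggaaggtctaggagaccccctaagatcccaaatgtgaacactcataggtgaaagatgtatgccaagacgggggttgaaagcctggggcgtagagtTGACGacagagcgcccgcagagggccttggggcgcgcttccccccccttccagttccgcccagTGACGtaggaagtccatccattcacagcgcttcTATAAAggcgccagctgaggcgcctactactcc
Junb: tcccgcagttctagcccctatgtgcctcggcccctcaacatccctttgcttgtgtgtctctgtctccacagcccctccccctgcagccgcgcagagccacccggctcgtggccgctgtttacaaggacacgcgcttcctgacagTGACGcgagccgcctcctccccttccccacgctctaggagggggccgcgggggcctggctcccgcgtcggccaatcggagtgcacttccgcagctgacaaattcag
Zfp36: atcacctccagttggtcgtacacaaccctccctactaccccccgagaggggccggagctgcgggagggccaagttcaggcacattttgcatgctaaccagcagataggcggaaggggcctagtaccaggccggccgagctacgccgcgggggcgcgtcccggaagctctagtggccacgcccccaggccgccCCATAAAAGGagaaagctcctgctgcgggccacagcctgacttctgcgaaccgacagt
Btg2: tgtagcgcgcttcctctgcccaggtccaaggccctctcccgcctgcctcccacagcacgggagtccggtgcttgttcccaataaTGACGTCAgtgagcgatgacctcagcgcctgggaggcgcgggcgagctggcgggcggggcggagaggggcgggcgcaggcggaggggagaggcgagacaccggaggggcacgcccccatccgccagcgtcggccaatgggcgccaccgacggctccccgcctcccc
Of the 8 members with a sequence, 5 held TGACG (Fos, Fosb, Junb, Btg2 and Atf3), against 17.8% of all 32851 promoter windows of the same 250 bases. Btg2 alone held the full TGACGTCA, which 1.55% of all windows held. Fos alone held TATAAA, 33 bases before the start, against 12.4% of windows, and Zfp36 alone held a CArG box, against 1.47%. TGANTCA, the AP-1 motif with any base at its centre, was in none of the 8 windows and in 6.75% of all. The windows of Jun and Jund held none of these motifs. A match here describes letters in the window and is not a measured binding site.

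Levels were computed from the deposited counts. The counts of a group of cells were summed and scaled to CPM, counts per 1000000 gene counts without Rn18s, the 18S ribosomal RNA. Rn18s was set aside because its median share of a cell's counts ran from 13.8% in Het macrophages of plate 056s to 55.9% in Het microglia of plate 529s. The cells of 1 genotype and type on 1 plate are called a pool. Each cell type had 8 pools of at least 10 cells, from plates 059s, 529s and 530s for WT, 056s, 524s and 529s for Het, and 060s and 524s for KO. The median cell held 197196 counts without Rn18s among macrophages (1488 to 1959090) and 246554 among microglia (13829 to 2107020), and plate 056s was the deepest in both types. No label names an animal, so the cells of 1 genotype and type count as 1 sample. Differences are therefore given as values with counting intervals, without a test or a p-value. Each pool was of 1 sex by its RNA: Xist was at 579 CPM or more in the pools of WT 530s, Het 529s and KO 524s and at 8.81 CPM or less in the others, where the Y-linked gene Ddx3y was at 38.0 CPM or more. All 12 markers of perivascular macrophages were higher in cells labelled macrophages and all 12 microglial markers were higher in cells labelled microglia. The separation was partial. Perivascular macrophage markers still summed to 12958 CPM in microglia, where macrophages held 29409 CPM. Microglial markers summed to 8668 CPM in macrophages, where microglia held 48266 CPM. How far this overlap affects results shared by the types, or the ratios between them, was not tested. Mural cell markers summed to at most 13.2 CPM in a macrophage pool and 102 CPM in a microglial pool. Oligodendrocyte markers reached higher sums, up to 1645 CPM among the macrophage pools and up to 648 CPM among the microglial ones. Notch3 itself had 77 counts in 1 of 211 WT macrophages and at most 2 counts in any other group of macrophages or microglia, so it could not check the genotype labels.

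Zfp36, Fos, Btg2 and Jun were the most abundant members in macrophages. Over all 400 macrophages, Zfp36 stood at 252 CPM (exact Poisson 95% interval 249 to 255), Fos at 195 CPM (193 to 198), Btg2 at 167 CPM (165 to 169) and Jun at 129 CPM (127 to 131). Ier2 followed at 87.5 CPM and Junb at 68.5 CPM. In the 215 microglia, Btg2 led at 286 CPM (283 to 290), before Zfp36 at 190 CPM (186 to 193), Jun at 167 CPM (164 to 170), Fos at 119 CPM (117 to 122), Junb at 108 CPM and Ier2 at 58.1 CPM. Egr1 reached 29.7 CPM in macrophages, and in microglia 21.6 CPM. Jund, Atf3 and Fosb were low in both types, with 12.1, 8.10 and 1.56 CPM in macrophages and 6.44, 10.8 and 0.523 CPM in microglia. These intervals cover counting error alone, and because SMART-seq2 reads are PCR copies without molecular identifiers they are narrower than the true error. The spread between pools, given next, was much wider.

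Divided by the exonic length of the gene in GENCODE M21, the levels of the members can be set beside each other. On that scale Fos led in macrophages with 83.0 CPM per kb, followed by Zfp36 with 72.6, Btg2 with 60.9 and Ier2 with 57.5 CPM per kb. Microglia had Btg2 first, with 104 CPM per kb, and Zfp36, Jun and Fos close together at 54.6, 52.5 and 50.6 CPM per kb. Fosb was last in both types, at 0.249 and 0.0837 CPM per kb. The pools of neighbours in these orders overlapped, except Jund and Fosb in microglia. Exons of 4 members overlap another gene in GENCODE M21, and SMART-seq2 keeps no strand, so reads in the overlap cannot be assigned. The partner was at 1.10 CPM or less for Jun (Junos), Zfp36 (Gm44710) and Jund (Gm11175). Junb overlaps the coding gene Prdx2, a peroxiredoxin, whose own level was 49.1 CPM in macrophages and, in microglia, 44.5 CPM, so the level of Junb is uncertain to that extent.

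Among the 8 pools of each cell type, 1 stood above the rest for most members. The members compared were the 7 whose mean over the 8 pools was at least 20 CPM in each type. For 6 of the 7, Fos, Jun, Junb, Ier2, Zfp36 and Btg2, 1 pool was the highest of the 8 in both cell types. It was the WT pool of plate 529s, of 26 macrophages and 15 microglia. Of 5781 genes compared in the same way, 3.91% were highest in that pool in both types. The exception was Egr1, which was highest in WT 059s macrophages and in WT 530s microglia. This pattern was picked out after the values had been seen. It rests on the scaling: with Rn18s kept in the total, 3 of the 7 members were highest in that pool in both types.

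Fos, the partner of Jun in AP-1, shows the pattern plainly. In macrophages it was at 544, 792 and 105 CPM in the WT pools of plates 059s, 529s and 530s, at 102, 90.7 and 97.1 CPM in the Het pools of plates 056s, 524s and 529s, and at 18.7 and 95.7 CPM in the KO pools of plates 060s and 524s. A pair of WT pools was high, the third lay with the Het pools and with KO of plate 524s, and KO of plate 060s lay below all others. In microglia, Fos was at 175, 651 and 110 CPM in WT, at 2.42, 154 and 53.8 CPM in Het and at 5.04 and 159 CPM in KO, in the same order of plates. Here the WT pool of plate 529s stood alone, KO of plate 524s lay among the WT pools, and Het of plate 056s and KO of plate 060s were near 0.

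The Jun family members had less spread outside that pool. Jun in macrophages was at 92.5, 411 and 119 CPM in WT, at 132, 129 and 81.8 CPM in Het and at 83.8 and 170 CPM in KO. In microglia it was at 159, 510 and 151 CPM in WT, at 221, 104 and 79.4 CPM in Het and at 86.7 and 141 CPM in KO. Apart from the WT pool of plate 529s the genotypes overlapped in macrophages, while in microglia both KO pools lay below all WT pools and Het overlapped both. Junb in macrophages was at 62.3, 356 and 58.2 CPM in WT, at 55.1, 45.7 and 7.07 CPM in Het and at 32.4 and 106 CPM in KO. Its microglial levels were 114, 284 and 129 CPM in WT pools, 35.2, 98.6 and 102 CPM in Het and 106 and 147 CPM in KO, so Het lay below WT and KO overlapped WT. Prdx2, which shares exon sequence with Junb, was at 44.8 CPM in WT macrophages of plate 529s and at 61.0 CPM in Het ones, so it was not higher where Junb was.

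Zfp36 and Btg2, which both act on mRNA decay, were detected in most pools at over 100 CPM. Zfp36 in macrophages was at 351, 956 and 157 CPM in WT, at 260, 350 and 180 CPM in Het and at 66.2 and 260 CPM in KO. In microglia it was at 169, 828 and 163 CPM in WT, at 110, 183 and 162 CPM in Het and at 104 and 253 CPM in KO. Apart from the WT pool of plate 529s, the genotypes overlapped, and KO of plate 060s was the lowest pool in both types. Btg2 in macrophages was at 266, 391 and 129 CPM in WT, at 146, 148 and 193 CPM in Het and at 111 and 112 CPM in KO, so that both KO pools lay below all 6 WT and Het pools. In microglia Btg2 was at 368, 613 and 171 CPM in WT, at 242, 390 and 144 CPM in Het and at 377 and 154 CPM in KO, and the genotypes overlapped.

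Ier2 in macrophages was at 161, 187 and 61.1 CPM in WT, at 94.0, 22.3 and 46.9 CPM in Het and at 30.5 and 51.2 CPM in KO, with KO below WT and Het overlapping both. In microglia it was at 72.2, 203 and 75.7 CPM in WT, at 52.6, 13.9 and 23.9 CPM in Het and at 46.6 and 31.2 CPM in KO, with every WT pool above every other. Most Egr1 counts came from WT cells. Its macrophage levels were 114, 18.6 and 22.4 CPM in WT pools, 11.8, 0.405 and 0.372 CPM in Het and 0.152 and 0.651 CPM in KO. The levels in microglia were 49.2, 15.3 and 72.1 CPM in WT pools, 0, 7.12 and 6.27 CPM in Het and 4.01 and 8.94 CPM in KO, and all 3 WT pools lay above all others in both types. For WT pools above all Het and KO pools, as in Egr1 and in microglial Ier2, no share of all genes was computed. Shares for WT against Het and against KO apart are given further on. The 0 of Het plate 056s allows up to 0.186 CPM. Few cells made up these sums: 1 cell gave 33.6%, 70.2% and 54.0% of the Egr1 counts of the 3 WT macrophage pools, and 71.5%, 44.9% and 54.8% of those of the WT microglial pools. Jund, Atf3 and Fosb stayed below 20 CPM in 7 or more pools of each type.

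**Figure D1:**
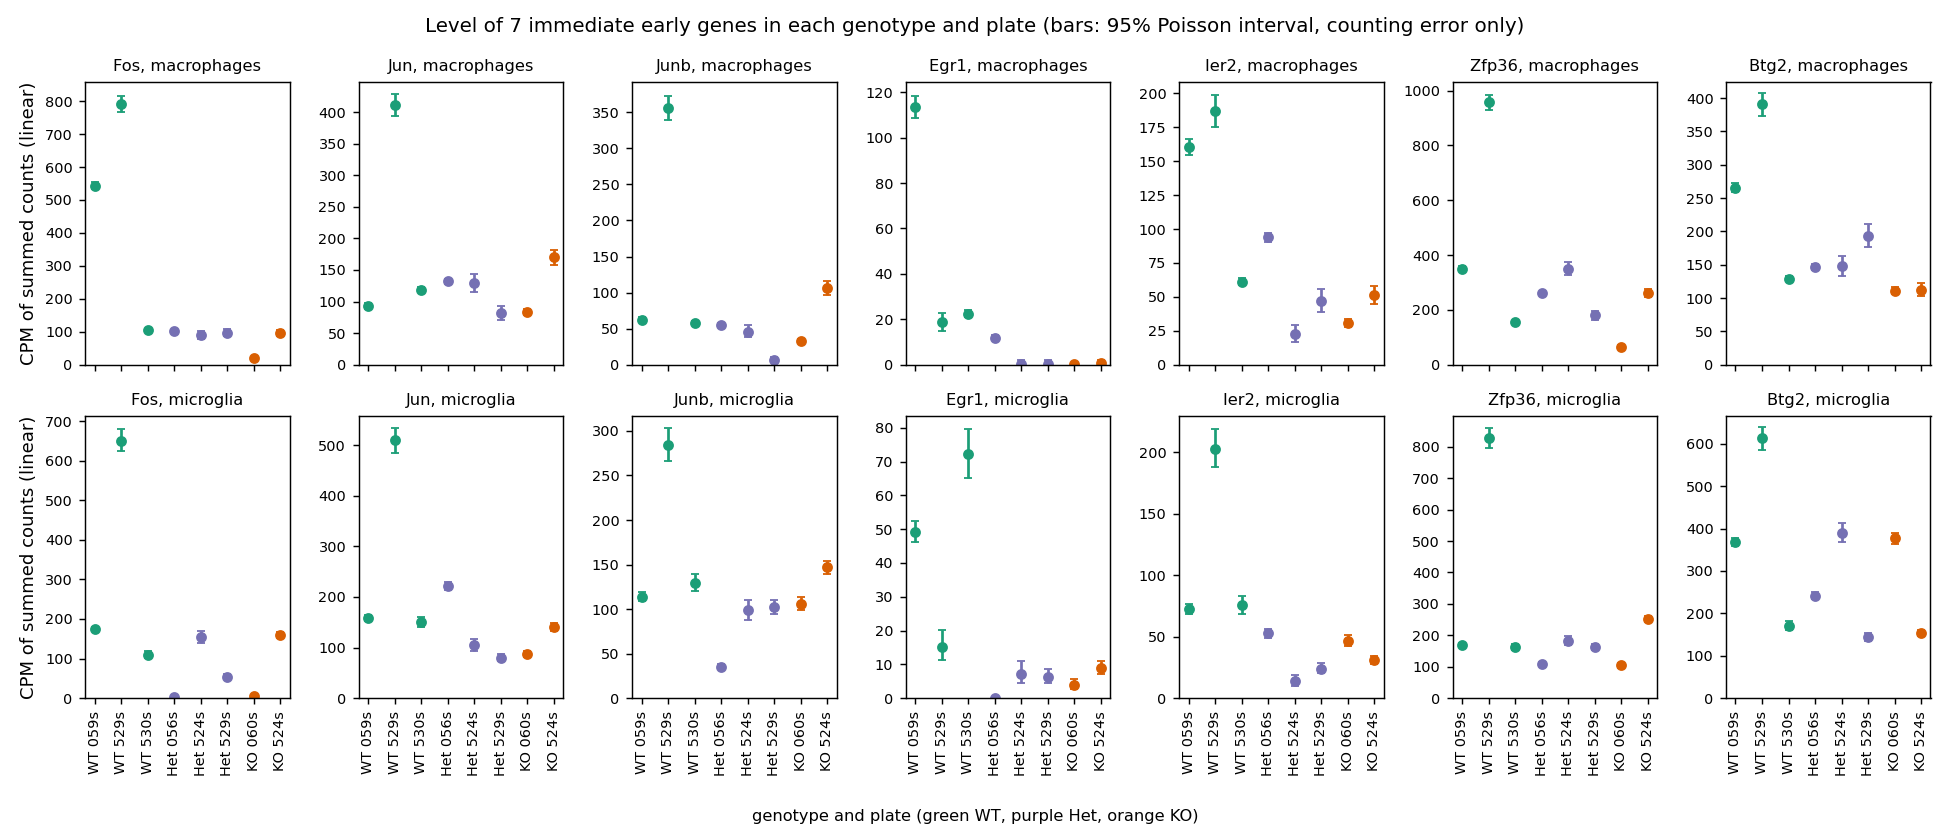
CPM of summed counts (linear axis) of the 7 members of at least 20 CPM, for each genotype and plate, in macrophages (top) and microglia (bottom); bars are exact Poisson 95% intervals and cover counting error only. The WT pool of plate 529s is the highest for 6 of the 7 members in both rows, while Egr1 is highest in WT 059s macrophages and WT 530s microglia.

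Plate 529s held WT and Het cells side by side, so genotypes can be compared within it. There, 6 of the 6 members of at least 20 CPM were at least 2-fold higher in WT than in Het macrophages, where 23.6% of all genes were higher by that much. In microglia 6 of 7 were higher, against 19.8% of genes, and 1, Atf3, was lower (9.97 against 22.9 CPM), against 18.5%. All 6 that were measured in both types were higher in both, against 5.34% of genes. The median log2 ratio of the members, on CPM + 1, was 2.36 in macrophages and 2.35 in microglia, where Atf3 counts among the 7, while the median of all genes was 0.01 and 0.07. Ratios for Fos were 3.02 and 3.57, for Jun 2.32 and 2.67, for Zfp36 2.40 and 2.35, for Ier2 1.97 and 3.03, and for Btg2 1.01 and 2.09, in macrophages and microglia. Junb differed most in macrophages, with a log2 ratio of 5.47, against 1.47 in microglia. Rn18s took a median of 53.6% and 55.7% of counts in the WT and Het macrophages and 51.3% and 55.9% in the microglia of that plate, and mitochondrial genes 2.38% and 2.81%, and 2.19% and 2.15%. The WT cells of the plate were male and the Het cells female by Xist and Ddx3y, so genotype, sex and animal cannot be told apart there.

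Other rapidly induced genes of fixed lists were read in the same comparison within plate 529s, where 23.6% of all genes were at least 2-fold higher and 21.4% lower in WT macrophages, and 19.8% and 18.5% in WT microglia. Among feedback regulators, which dampen kinase and NF-kB signalling, 5 of 12 measured were at least 2-fold higher and 2 lower in WT macrophages, and 6 of 12 higher and none lower in WT microglia. Dusp1, a phosphatase of MAP kinases, was at 1558 against 235 CPM in macrophages and 1083 against 61.7 CPM in microglia. Ier3 was at 177 against 33.1 CPM and at 168 against 18.6 CPM. Of other rapid response genes, 7 of 10 were higher in macrophages and 5 of 11 in microglia, led by Ccn1, a secreted matrix protein, at 1475 against 172 CPM and 2152 against 141 CPM. Of the 10 genes on the list of rapid cytokines and chemokines, all that were measured were higher in WT, 3 of 3 in macrophages and 5 of 5 in microglia. Ccl2, which attracts monocytes, was at 62.0 against 17.1 CPM in macrophages and 368 against 15.7 CPM in microglia, and Ccl3 at 86.5 against 22.3 CPM and 333 against 8.25 CPM. Ccl2 in both types and Ccl3 in microglia reached 20 CPM in WT alone, so the limit for being measured favoured that direction. Of the EGR, NR4A and KLF factors, 2 of 6 were higher and 1 lower in macrophages and 4 of 5 were higher in microglia. Nr4a1, an orphan nuclear receptor, went in opposite directions, with 8.52 against 31.3 CPM in macrophages and 109 against 0 CPM in microglia, where the 0 allows up to 0.495 CPM.

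Of the heat shock genes, which encode chaperones, none was 2-fold higher in WT of plate 529s, and 1 of 6 measured in macrophages and 2 of 8 in microglia were lower, among them the co-chaperone Dnaja1 at 10.3 against 49.9 CPM and 12.5 against 34.7 CPM. Of AP-1 relatives outside the members, 1 of 5 was higher and 1 lower in macrophages, and 2 of 4 were higher in microglia. Fosl2, another Fos family protein, was higher in both, at 31.1 against 2.98 CPM and 42.7 against 16.0 CPM. Upstream kinases and factors were divided, with 4 of 11 higher and 1 lower in macrophages and 1 of 13 higher and 4 lower in microglia.

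Between genotypes over all plates, members were lower in KO than in WT macrophages. KO and WT cells shared no plate in either cell type, so genotype and plate cannot be told apart between them. Of the 7 measured, 4 were at least 2-fold lower in KO, where 6.38% of 6928 genes were, and none was higher. Fos was at 38.7 CPM in KO (35.9 to 41.8) and 304 CPM in WT (300 to 308), a log2 ratio of -2.94. Egr1 was at 0.282 CPM in KO, from 5 counts, and 51.3 CPM in WT, a log2 ratio of -5.35. Ier2 differed by a log2 ratio of -1.51 and Zfp36 by -1.29, while Btg2 (-0.80), Junb (-0.71) and Jun (-0.35) stayed within 2-fold. The median of the members was -1.29 and that of all genes -0.06. In 4 of the 7, Fos, Egr1, Ier2 and Btg2, both KO pools lay below all 3 WT pools, as they did for 12.6% of genes. Without plate 529s 3 members were at least 2-fold lower and the median was -0.94, and without plate 060s 3 were lower and the median was -0.79. Zfp36 then had a log2 ratio of -0.14 without plate 060s, which held 98 of the 119 KO macrophages.

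Against Het macrophages, 3 of 6 measured members were at least 2-fold lower in KO, Fos (-1.35), Ier2 (-1.24) and Zfp36 (-1.15), where 12.8% of genes were. Btg2 alone had both KO pools below all Het pools, as 8.09% of genes had. The count rested on plate 060s. Without it 0 members were at least 2-fold lower and 1, Junb, was higher (1.04), and the median of the members went from -0.79 to -0.04. Without plate 056s Ier2 had a log2 ratio of 0.031. As the mean of pools, which gives each plate the same weight, 0 members were past 2-fold. Btg2 was also the 1 member of 7 with both KO pools below all 6 WT and Het pools, against 2.96% of genes. The KO pool of plate 060s was the lowest of the 8 macrophage pools for 4 of the 7 members (Fos, Egr1, Zfp36 and Btg2), against 4.91% of genes, a count also chosen after the values had been seen.

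In summed counts fewer members were at least 2-fold lower in Het than in KO macrophages, both set against WT. Whether Het lay nearer to WT or to KO depended on the weighting. As the mean of pools, 4 members were at least 2-fold lower in Het than in WT, and 0 differed by that much between KO and Het. The values that follow are of summed counts unless stated. Fos (log2 ratio -1.59) and Egr1 (-2.21) were at least 2-fold lower in Het, 2 of 7 against 10.6% of genes, and the median of the members was -0.38. In 3 of the 7, Fos, Junb and Egr1, every Het pool lay below every WT pool, as for 6.82% of genes. Plate 056s gave most counts of the Het macrophages. Without it 4 members (Fos, Junb, Egr1 and Ier2) were at least 2-fold lower and the median was -1.54, without plate 059s only Egr1 was, with Fos at -0.92, and with Rn18s kept in the total the median was 0.10. Other rapidly induced genes were higher in Het than in WT macrophages over all plates: 3 of 3 measured rapid cytokines and chemokines and 3 of 6 EGR, NR4A and KLF factors were at least 2-fold higher, where 9.38% of genes were, and none was lower. Ccl2 was at 338 against 72.5 CPM and Nr4a1 at 161 against 0.891 CPM. These values came mostly from plate 056s, whose Het macrophages had Ccl2 at 386 CPM, against 29.9 and 17.1 CPM in the Het pools of plates 524s and 529s. Without plate 056s, an alternative chosen after seeing the data, 0 of the 3 cytokines and chemokines were higher and Ccl2 was lower, and of the 6 factors Nr4a1 was higher and Klf2 lower.

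In microglia the order of the genotypes was different, with the members lowest in Het for Fos, Junb, Egr1, Zfp36 and Btg2 and lowest in KO for Jun and Ier2. The place of Jun and Ier2 rested on plate 056s: without it the log2 ratio of KO over Het went from -0.56 to 0.41 for Jun and from -0.11 to 0.85 for Ier2. The place of Fos, Zfp36 and Btg2 also rested on single plates. Without plate 524s that ratio went from 1.46 to -1.53 for Fos and from 0.51 to -0.25 for Zfp36. Without plate 060s it went from 0.10 to -0.61 for Btg2. Het lay below WT by at least 2-fold for 4 of 7 measured members, Fos (-2.70), Junb (-1.21), Egr1 (-3.92) and Ier2 (-1.08), where 9.22% of genes did. Their median was -1.08 and that of all genes -0.06, and for Junb, Egr1 and Ier2 every Het pool lay below every WT pool (4.22% of genes). KO lay below WT by at least 2-fold for 3 of 7, Fos (-1.23), Egr1 (-2.71) and Ier2 (-1.19), where 7.03% of genes did. For Jun, Egr1 and Ier2 both KO pools lay below all WT pools (7.2% of genes). The count of members at least 2-fold lower in KO than in WT was 1 without plate 529s (Egr1) and 5 without plate 059s. Fos in that comparison rested on single plates, with a log2 ratio of -0.44 without plate 060s and -5.17 without plate 524s. Junb in Het over WT was at -0.44 without plate 056s, and Ier2 was at -0.64 there without plate 529s.

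KO lay above Het microglia by at least 2-fold for 2 of 6 members, Fos (1.46) and Junb (1.12), against 7.97% of genes, and none lay below. Every KO pool was above every Het pool for Junb, as for 10.1% of genes. The Fos value rested on single plates and on depth. Its log2 ratio was -0.12 as the mean of the cells' own CPM, -0.13 with cells thinned to 50000 counts and -1.53 without plate 524s, where 2 members (Fos and Jun) lay below Het by at least 2-fold and none above. The deep plate 056s had Fos at 2.42 CPM in Het microglia, and without it neither member differed by 2-fold.

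Plate 524s held KO and Het cells side by side, and there the members did not share a direction. In macrophages 2 of 6 were at least 2-fold higher in KO, Junb (106 against 45.7 CPM) and Ier2 (51.2 against 22.3 CPM), where 24.5% of genes were, and none was lower. In microglia Ier2 was higher (31.2 against 13.9 CPM) and Btg2 lower (154 against 390 CPM), 1 of 6 each way, where 15.3% of genes were higher and 15.3% lower. Fos hardly differed, at 95.7 against 90.7 CPM in macrophages and 159 against 154 CPM in microglia. The KO cells of this plate were female and the Het cells male by Xist and Ddx3y, so genotype, sex and animal cannot be told apart here either.

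**Figure D2:**
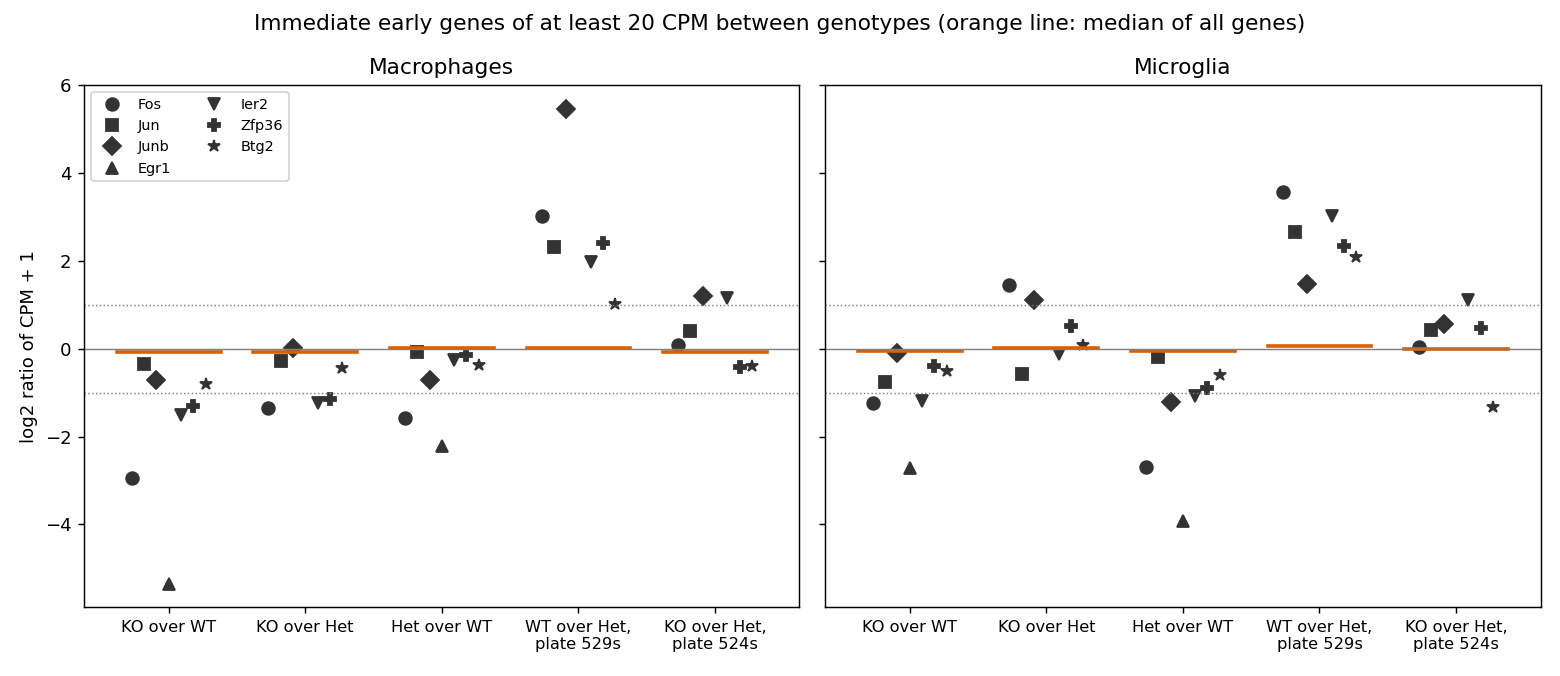
Log2 ratio of CPM + 1 of the members of at least 20 CPM (symbols) for each comparison of genotypes, in macrophages (left) and microglia (right); the orange line is the median of all genes and dotted lines mark 2-fold. WT over Het within plate 529s puts the 6 members shown above the upper dotted line in both cell types, with medians of 2.36 and 2.51, while KO over Het within plate 524s scatters around 0; Atf3 is not drawn.

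The lists of related genes were also read in the comparison of KO with WT. There 6.38% of all genes were at least 2-fold lower in KO macrophages and 7.03% in KO microglia. In macrophages 4 of 10 measured feedback regulators were at least 2-fold lower in KO, among them Dusp1 (54.4 against 158 CPM) and the Zfp36 relative Zfp36l1 (161 against 339 CPM). The C/EBP factors Cebpd (27.0 against 119 CPM) and Cebpb (3.55 against 26.3 CPM) were the 2 of 8 rapid response genes that were lower. Rapid cytokines and chemokines were lower for 2 of 3, AP-1 relatives for 1 of 5 and EGR, NR4A and KLF factors for 1 of 4. No heat shock gene of 7 differed by 2-fold, and 1 of 12 upstream kinases and factors did. In microglia 4 of the 10 listed rapid cytokines and chemokines were measured and all 4 were lower in KO. Ccl2 was at 9.59 against 56.6 CPM and Il1b at 2.06 against 44.1 CPM. Both reached 20 CPM in WT alone, so the limit for being measured favoured that direction. Dusp1 was lower there too, at 39.4 against 163 CPM, among 3 of 12 feedback regulators, and no heat shock gene of 7 or upstream gene of 12 differed by 2-fold. In the WT pools of plate 529s, Dusp1 in both types and Ccl2 in microglia stood far above these WT levels, as given above. The lists were not compared between KO and WT without that plate. How far the differences rest on it was therefore not tested.

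Macrophages and microglia of the same genotype and plate were compared in 8 pairs of pools. This comparison is a description, since the cell type labels may have been drawn from these counts. The median log2 ratio of the 7 members, macrophages over microglia, was -0.18, and that of all genes was 0.00. Egr1 was the 1 member past 2-fold, lower in macrophages by a log2 ratio of -1.88, where 9.8% of genes were, and its 8 pairs ran from -2.59 to 3.68. Without plate 524s the value of Egr1 was -0.69, and Fos, higher in macrophages, was the 1 member past 2-fold. None of the 7 went the same way in all 8 pairs, as 11.6% of genes did. Btg2 was higher in microglia in 7 of 8 pairs, with a median log2 ratio of -0.56, and Junb in 6 of 8, with -0.98. Zfp36 was higher in macrophages in 6 of 8 pairs, with 0.18. Fos ran from -0.76 in Het of plate 524s to 4.91 in Het of plate 056s.

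**Figure D3:**
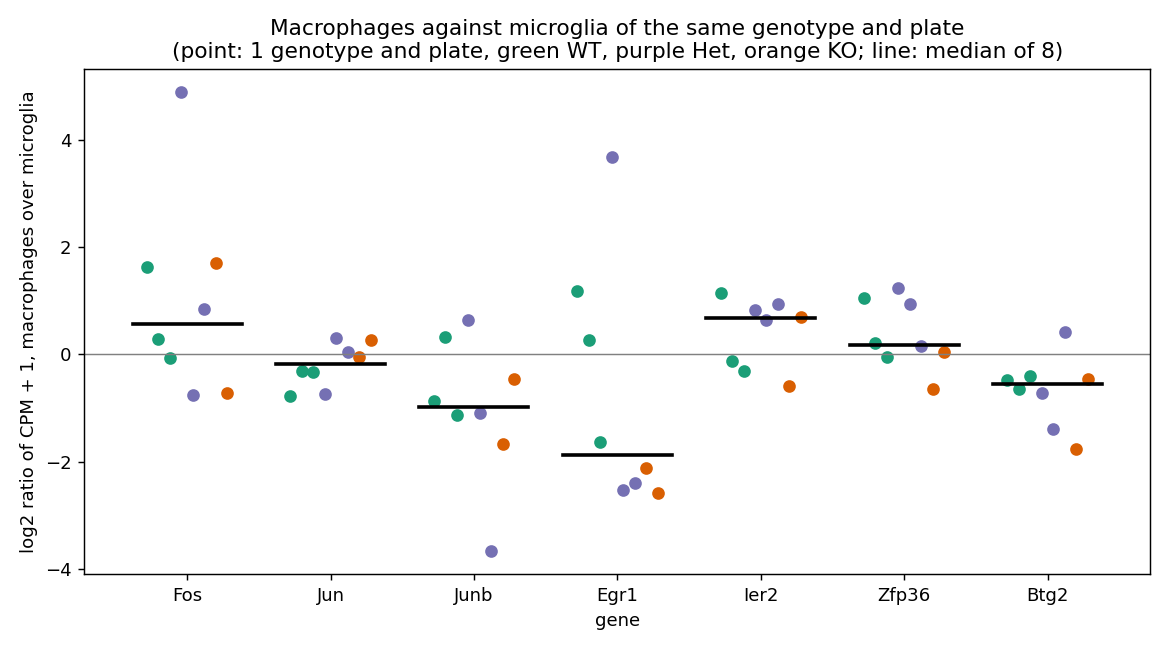
Log2 ratio of CPM + 1 of macrophages over microglia for the 7 members; each point is 1 genotype and plate and the black line is the median of the 8. Points lie on both sides of 0 for every member, and the median of Btg2 (-0.56) and Junb (-0.98) lies on the side of microglia.

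In single cells the members were patchy. As sequenced, Zfp36 had a count in 308 of 400 macrophages (77%, exact Clopper-Pearson 95% interval 72.6 to 81.0%) and 188 of 215 microglia (87.4%, 82.3 to 91.6%). Fos had a count in 164 macrophages (41%, 36.1 to 46.0%) and 85 microglia (39.5%, 33.0 to 46.4%), and Egr1 in 10.2% and 18.1%. Junb was in 35% of macrophages and 71.6% of microglia, and Jun in 47.5% and 66.0%. Fosb was in 5 macrophages and 3 microglia. Deeply read cells counted Fos at low levels: on plate 056s Fos had a count in 22 of 35 macrophages, yet the median of those 22 cells was 5.32 CPM, against 638 CPM in the 17 Fos cells of the WT macrophages of plate 529s. Shares are therefore also given after each cell was thinned to 50000 counts without Rn18s, which left out 25 macrophages and 10 microglia that were shallower. Thinned shares were 66.1% and 80.5% for Zfp36, 32.3% and 27.3% for Fos, 27.5% and 66.3% for Junb and 41.1% and 60% for Jun, in macrophages and microglia.

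At equal depth the WT cells of plate 529s more often had a count of several members, though not of all. Thinned, Fos had a count in 17 of 26 of their macrophages (65.4%, 44.3 to 82.8%), while the other 7 macrophage pools ran from 14.3% to 47.4%. Jun was in 23 of 26 (88.5%, against 29.4 to 52.6% in the other pools), Junb in 65.4% (5.88 to 29.8%), Ier2 in 73.1% (21.4 to 37.1%) and Btg2 in 69.2% (31.6 to 51.1%). In microglia Jun was in 13 of 14 (92.9%, against 46.7 to 66.7%), Junb in 14 of 14 (40 to 75%), Fos in 71.4% (4.44 to 53.3%) and Ier2 in 71.4% (25 to 53.3%). Btg2, at 71.4%, lay inside the range of the other microglial pools (55 to 91.7%). Zfp36 was in every WT cell of the plate, 26 of 26 and 14 of 14. Egr1 was in 3 of 26 of the macrophages (11.5%), inside the range of the other pools (0 to 14.9%), and in 5 of 14 of the microglia (35.7%, against 0 to 16.7%). Fosb and Atf3 were in 0 of the 26 macrophages, and in 0 and 1 of the 14 microglia.

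The amount per cell differed as well. The 10 members together took a median of 2582 CPM of a cell (quartiles 1707 and 3431) in the 26 WT macrophages of plate 529s and 2408 CPM (2048 and 3449) in the 15 microglia. Medians of the other pools ran from 254 CPM in KO 060s to 745 CPM in Het 529s among macrophages, and from 571 CPM in Het 056s to 898 CPM in Het 524s among microglia. So the middle cell of that pool was well above the middle cell of the others, and the summed level was not set by 1 cell. With the top cell of each pool left out, 6 of the 7 members were still highest there in both types. Fos itself was more uneven: the 5 cells with the most Fos held 76.5% of the Fos counts of those WT macrophages, and between 57.1% and 100% in the other macrophage and microglial pools. In WT macrophages of plate 059s, 1 of 47 cells held 60.7% of the Fos counts, at 9578 CPM.

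**Figure D4:**
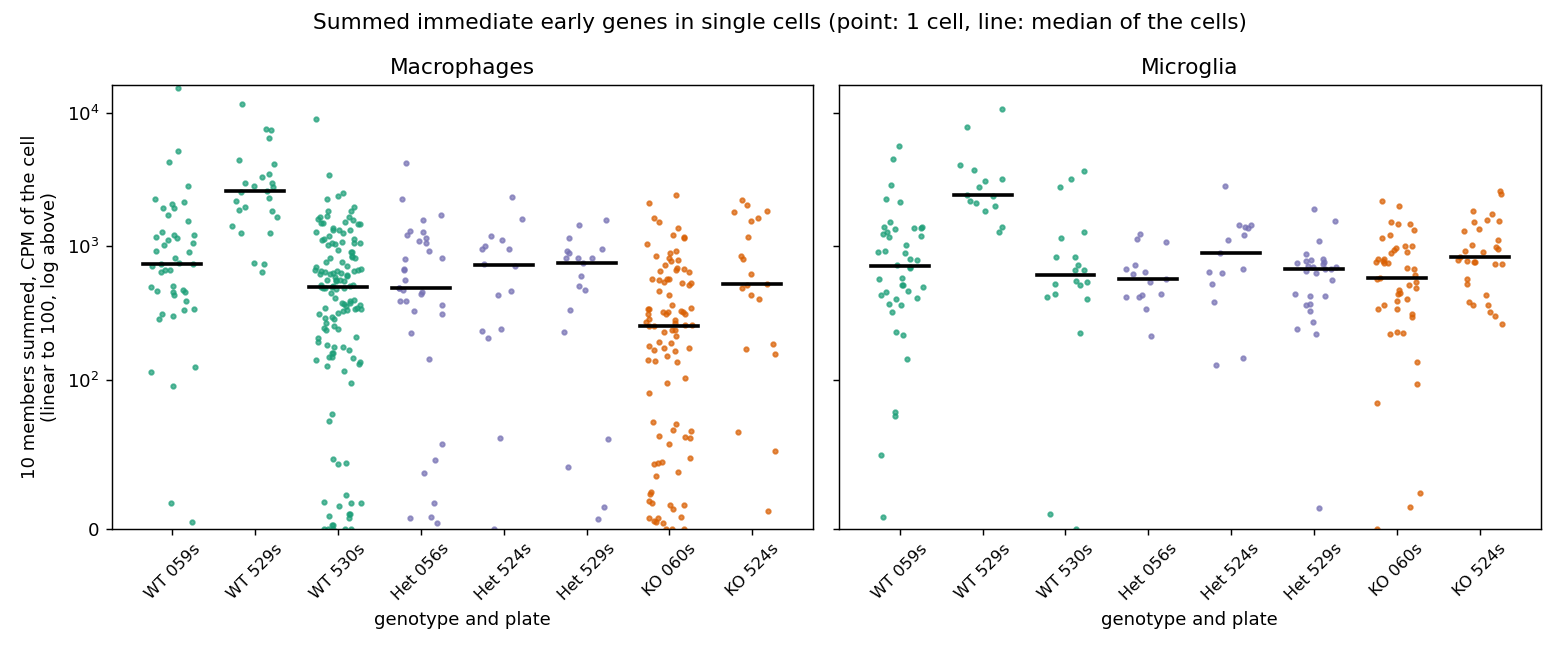
Summed CPM of the 10 members in each cell (vertical axis linear to 100 and logarithmic above), by genotype and plate; the black line is the median of the cells. The median of the WT cells of plate 529s is 2582 CPM for macrophages and 2408 CPM for microglia; KO macrophages of plate 060s have the lowest, 254 CPM.

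Most cells had counts of several members. Macrophages had a mean of 3.21 of the 10 members with a count and microglia 4.44, and 9 of 400 macrophages and 2 of 215 microglia had none. Microglia also had more genes of any kind detected in the median cell, in every genotype and plate. Those medians ran from 3809 to 5731 genes in microglial pools and from 2960.5 to 4635 genes in macrophage pools. How far the difference in members follows from that was not tested. At 5 members or more were 23% of macrophages and 45.6% of microglia. After thinning the means were 2.61 and 3.80. The highest pools were again WT of plate 529s, with 4.92 members per macrophage and 5.86 per microglial cell after thinning, and the lowest were KO of plate 060s, with 1.89 and 3.22. The other pools lay between 2.44 and 3.06 in macrophages and between 3.35 and 4.23 in microglia.

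Within a pool, members were at most loosely tied to each other. Spearman's rho between the CPM of pairs of members over the cells of a pool had a median of 0.11 over 28 pairs in macrophages and 0.09 over 36 pairs in microglia. In 23 of 28 and 27 of 36 pairs the median over pools was above 0, and 1 pair, in microglia, passed 0.3. Jun and Ier2 reached 0.29 in macrophages and 0.25 in microglia, and Fos and Junb 0.25 and 0.07. In thinned macrophages, 52.9% of those with Fos and 35.4% of those without it had Jun, and 38.0% and 22.4% had Junb. Those shares pool all plates, and the plates differ in both genes. Correlations this weak in sparse counts are given as a description only. The sum of the members had a median rho of 0.00 with the counts of a cell in macrophages and -0.07 in microglia, and of 0.03 and 0.29 with the number of genes detected.

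The genes whose level followed the summed members most closely across the cells of a pool were found among 5104 genes in macrophages and 7074 in microglia. In macrophages Per1, a circadian clock gene that is itself rapidly induced by many stimuli, came first, with a mean rho of 0.26 over 8 pools and a positive rho in 8 of 8 (0.03 to 0.72). Mob3a (0.22), Tmem50a (0.22), Wdr3 (0.22), the coagulation factor subunit F13a1 (0.21), Fmnl1 (0.21), Zfp36l1 (0.20), Ppp1r12c (0.20), Cnot10 (0.19) and Dele1 (0.19) followed, while the 95th percentile of all genes was 0.12. Microglia had Mrpl49 (0.31), Pank4 (0.30), Vps13b (0.30), Kif21b (0.28) and Rab18 (0.27), with a 95th percentile of 0.16. After thinning, Per1 was again first in macrophages (0.24), whereas Cyp20a1 (0.34) took the first place in microglia. Such rho values are small, the genes were picked as the highest of all those compared, and the cells of a pool share a plate.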

How the data were processed

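Single cells of adult mouse brain were sequenced with SMART-seq2, and the authors deposited 1 table of whole-number counts per gene and cell, with no normalisation in its values. The submitters' processing notes name the aligner STAR. Build, annotation and counting program are not given in the sources used here. Each of the 629 columns was matched to a cell by title, 0 columns were left unmatched and 0 pairs of columns were identical. ERCC spike-in counts were set aside.

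The members and the gene lists were chosen with earlier results of these data known. All 10 members are named. Of each list the examples are the genes past 2-fold with the highest CPM, and the genes most like the members are those with the highest mean rho over pools among genes with a count in at least 25% of cells. Genotype, cell type and plate came from the labels. Counts were summed over cells and scaled to CPM of all gene counts without Rn18s, so the levels differ from those over a total that holds it. Ratios used CPM + 1. A gene was measured at 20 CPM or more in either group and called apart at 2-fold. Poisson and Clopper-Pearson intervals are exact at 95% and cover counting error only. A count of 0 was given the limit that 3 counts would set. The cells of a genotype may come from few animals, which no label names, so no test was run. The ratios were tried on simulated sums that held counting error only, so the trial did not cover the spread between cells, pools or plates. The thinning was tried on cells of these data. The work was done in Python 3.11.15 (scipy 1.17.1, numpy 2.4.6, pandas 2.3.3), with matplotlib 3.10.9 for figures. Alternatives used edgeR 4.0.16 TMM factors and DESeq2 1.42.0 size factors in R 4.3.3, other pseudocounts, floors and fold limits, means of cells or of pools, thinned cells, cells of at least 50000 counts and 1000 genes, the top cell of each pool left out, and each plate left out in turn.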

Additional observations from a re-analysis of the deposited data

Results flagged for a closer look

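The 14 cells of the type named only 7 entered no comparison. Their 10 members together were at 721 CPM (exact Poisson 95% interval 662 to 783), from 550 counts, which is above the 3.93 CPM that a count of 0 would allow. Fos was at 236 CPM (203 to 273) with a count in 7 of 14 cells, Btg2 at 159 CPM and Zfp36 at 134 CPM. These cells were spread over 5 pools of 1 to 4 cells, so no pool of them was compared.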

How the results depend on the processing

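Of the results that answer a comparison, 296 values under an alternative stayed within the spread or within 1.5 times the count and 39 did not, and of the values of single members past 2-fold 263 stayed past it, 36 fell under it and 4 changed sign. The cause was not tested. Counts below take members past 2-fold in either direction; the direction turned without plate 060s for KO over Het macrophages (Junb higher) and without plate 524s for KO over Het microglia (Fos and Jun lower) and macrophages over microglia (Fos higher). The count of members past 2-fold for KO over Het microglia was 0 with the mean of the cells' own CPM, with cells thinned to 50000 counts, with the mean of the pools and with a fold limit of 3, and 1 with Rn18s kept in the total. Fos in that comparison changed sign, to -0.12 with the mean of cells and -0.13 with thinned cells, and ran from -1.53 to 2.25 when plates were left out. For macrophages over microglia the count was 2 with the mean of cells, DESeq2 size factors, thinned cells or a floor of 5 CPM, 3 with a fold limit of 1.5, and 0 with a pseudocount of 5 CPM, a floor of 50 CPM or the top cells left out. The mean of the pools gave 0 for KO over Het macrophages, 4 for Het over WT macrophages and 5 for KO over WT microglia. The top cells left out gave 1 for Het over WT macrophages. A fold limit of 3 gave 2 for KO over WT macrophages, 0 for KO over Het macrophages, 1 for KO over WT microglia and 2 for Het over WT microglia, and a floor of 5 CPM gave 5 for KO over Het macrophages and 5 for KO over WT microglia. With plates left out in turn, the counts ran from 1 to 3 for KO over Het macrophages, 1 to 4 for Het over WT macrophages, 1 to 5 for KO over WT microglia, 0 to 2 for KO over Het microglia and 1 to 2 for macrophages over microglia, the median of Het over WT macrophages from -1.54 to -0.13, and Ier2 of KO over Het macrophages from -1.54 to 0.031. The median of KO over Het microglia was -0.10 without plate 524s. With Rn18s kept in the total 3 members were highest in the WT pool of plate 529s in both types; this count was 6 under the 6 other alternatives, all chosen after seeing the data. At 5 counts or more a macrophage had a mean of 2.25 members and a microglial cell 3.54, and the median share of microglia was 30.2%; thinned to 20000 counts these were 2.25, 3.30 and 26.9%. No fit with a replicate block was made, since the labels give no replicate numbers and no test was run; pools of the same plate were set side by side as values. Depth limits the shares of cells: 25 macrophages and 10 microglia held fewer than 50000 counts and gave no value after thinning.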

Other observations

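The order of the 8 pools was alike in the cell types for most members. Over the 8 pools, Spearman's rho between the level in macrophages and the level in microglia was 0.86 for Ier2, 0.76 for Junb, 0.74 for Egr1, 0.71 for Jun, 0.69 for Zfp36, 0.52 for Fos and 0.31 for Btg2. The median of these 7 was 0.71, and the median of 5781 genes was 0.14, with quartiles of -0.14 and 0.43. Both cell types of a pool share a plate and a genotype, so these values are a description.

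Atf3, which was left out of most comparisons for its low level, had its counts in few cells. Of its 525 counts in Het macrophages of plate 056s, 99.4% were in 1 of 35 cells, and of the 404 in WT macrophages of plate 530s, 82.4% were in 1 of 138. In microglia Atf3 was at 16.2 CPM in KO (14.4 to 18.0), 14.1 CPM in Het (12.7 to 15.6) and 3.83 CPM in WT (3.14 to 4.63). Both KO pools lay above all WT pools, but no share of all genes was computed for that separation. Atf3 lay under the limit for being measured in all 3 genotypes. It was the 1 member whose WT microglial level was the lowest of the 3 genotypes at 3 counts or more. Fosb, at 0 counts in WT microglia, allows up to 0.108 CPM there.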
